A study of Mus musculus with 4 samples.

Results

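Resting oligodendrocyte precursor cells (OPCs) were examined in single-cell RNA sequencing data of the neonatal mouse forebrain. They were chosen by their measured values: a barcode had to hold at least 3 UMIs (unique molecular identifiers, tags that mark each captured transcript) of *Pdgfra* and at least 1 UMI of *Olig1* or *Olig2*. It also had to hold 0 UMIs of the proliferation genes *Mki67* and *Top2a*, 0 of the myelin genes *Mag*, *Mobp* and *Mog*, at most 4 of *Gpr17* and at most 1 of the fibroblast collagens *Col1a1* and *Col1a2*. The rule was met by 1560 of 17623 cells that passed the quality filters (between 2000 and 40000 UMIs, 1000 genes or more, and no more than 10% of UMIs mitochondrial). The control libraries gave 405 (replicate 1) and 223 (replicate 2) of them, and the mutant libraries gave 630 (replicate 1) and 302 (replicate 2).

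OPCs are glial progenitors that migrate through the developing brain under the pull of platelet-derived growth factor, whose receptor is encoded by *Pdgfra*. They divide, or leave the cycle and pass through a committed stage marked by the receptor Gpr17 on their way to oligodendrocytes, which wrap axons in myelin. *Olig1* and *Olig2* encode the transcription factors that define this lineage, and the resting cells among the OPCs keep the receptors and ion channels through which the cells sense growth factors and neuronal activity.

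The study asked how loss of 1 copy of *Chd8*, a chromatin remodeller linked to autism, alters the cells of the brain. All mice were at postnatal day 5, of the strain C57BL/6 by label and backcrossed onto C57BL/6 J by the study's methods, and carried NestinCreERT2, a tamoxifen-activated Cre recombinase driven in neural progenitors, with a tdTomato reporter, and all had received tamoxifen in the midfetal period. Controls had the genotype NestinCreERT2/tdTomato/Chd8+/+ and mutants NestinCreERT2/tdTomato/Chd8+/F, so that Cre and tamoxifen were shared by both groups. Forebrain cells sorted for tdTomato were loaded on 10x Genomics 3′ chemistry in 4 libraries, 2 per genotype, each prepared from a pool of 3 mice. Only cells descended from Nestin-expressing progenitors at the time of tamoxifen should carry the reporter, and pooling leaves the spread between mice unmeasured, so p-values below measure the spread between pooled libraries only.

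The libraries differed in depth and quality by replicate number before any genotype was compared. Control replicates 1 and 2 held 79328841 and 46274374 UMIs, and mutant replicates 1 and 2 held 78211984 and 50616343. The filters kept 79.1% and 79.3% of the barcodes of control and mutant replicate 1, but 48.7% and 45.1% of those of control and mutant replicate 2. Among barcodes that met the marker rule, the filters removed 24 and 63 in control and mutant replicate 1 and 213 and 349 in control and mutant replicate 2, of which 8, 39, 175 and 254 exceeded the mitochondrial limit. In mutant replicate 2, more barcodes that met the marker rule were thus removed than kept. The resting OPCs that remained had median depths of 10326 and 7753 UMIs in control replicates 1 and 2 and 9034 and 6228 in mutant replicates 1 and 2, with medians of 3947, 3286, 3735 and 2960 genes in the same order. Their median mitochondrial share was 2.22% and 2.61% in control and mutant replicate 1 and 5.10% and 5.0% in control and mutant replicate 2. Matrices of replicate 1 named Cell Ranger version 7.0.0 in their headers and those of replicate 2 version 5.0.1. The libraries share few barcodes, and 1 resting OPC barcode occurred in both control and mutant replicate 1.

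*Xist*, the RNA that coats the inactive X chromosome of females, also separated the replicates. In resting OPCs it was at 0.933 and 0 CPM (counts of a gene divided by all UMIs, times 1000000) in control and mutant replicate 1 and at 2389 and 2877 CPM in control and mutant replicate 2. The Y-linked gene *Uty* was at 95.4 and 94.0 CPM in control and mutant replicate 1, against 0 and 0.904 CPM in control and mutant replicate 2. Cell by cell, 222 of 223 and 284 of 302 resting OPCs of control and mutant replicate 2 held *Xist* without a listed Y-linked transcript, while 347 of 405 and 535 of 630 of control and mutant replicate 1 held the reverse. Male mice are named for these libraries in the study's reporting summary. Replicate number, expressed sex-linked genes, software version and RNA quality therefore cannot be told apart here, although both genotypes were sampled in either replicate.

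The label was checked against markers. *Pdgfra*, the gene of the rule, stood at 1027 and 2159 CPM in control replicates 1 and 2 and at 1239 and 1461 CPM in mutant replicates 1 and 2. *C1ql1*, which encodes a secreted complement-like protein, was at 378 and 306 CPM in controls and 381 and 377 CPM in mutants, against 44.5 CPM over all other filtered cells. *Lhfpl3*, a tetraspan membrane protein gene typical of OPCs, was at 3743 and 997 CPM in controls and 4004 and 694 CPM in mutants, against 287 CPM elsewhere. The *C1ql1* level was similar in every library, whereas *Lhfpl3* was several times lower in both libraries of replicate 2.

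After each cell was thinned to 2000 UMIs, *C1ql1* was found in 50.4% and 39.9% of resting OPCs of control replicates 1 and 2 and in 46.3% and 49.3% of those of mutant replicates 1 and 2. Unthinned, the shares were 81.0%, 70.0%, 81.3% and 76.5%. Cells gated as inhibitory neurons, which should lack the gene, gave a background of 1.29%, 0.769%, 2.13% and 4.0% after thinning. *Cspg5*, a brain chondroitin sulfate proteoglycan, was at 2143 and 2028 CPM in controls and 2320 and 2200 CPM in mutants. It did not single out these cells, because cells gated as astrocytes held 1962, 1303, 1892 and 1616 CPM. The sample label calls the sorted cells neuronal. Summed neuron markers, which the rule did not use, were at 300 to 488 CPM in resting OPCs and at 671 to 1553 CPM in the remaining cells.

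**Figure D1:**
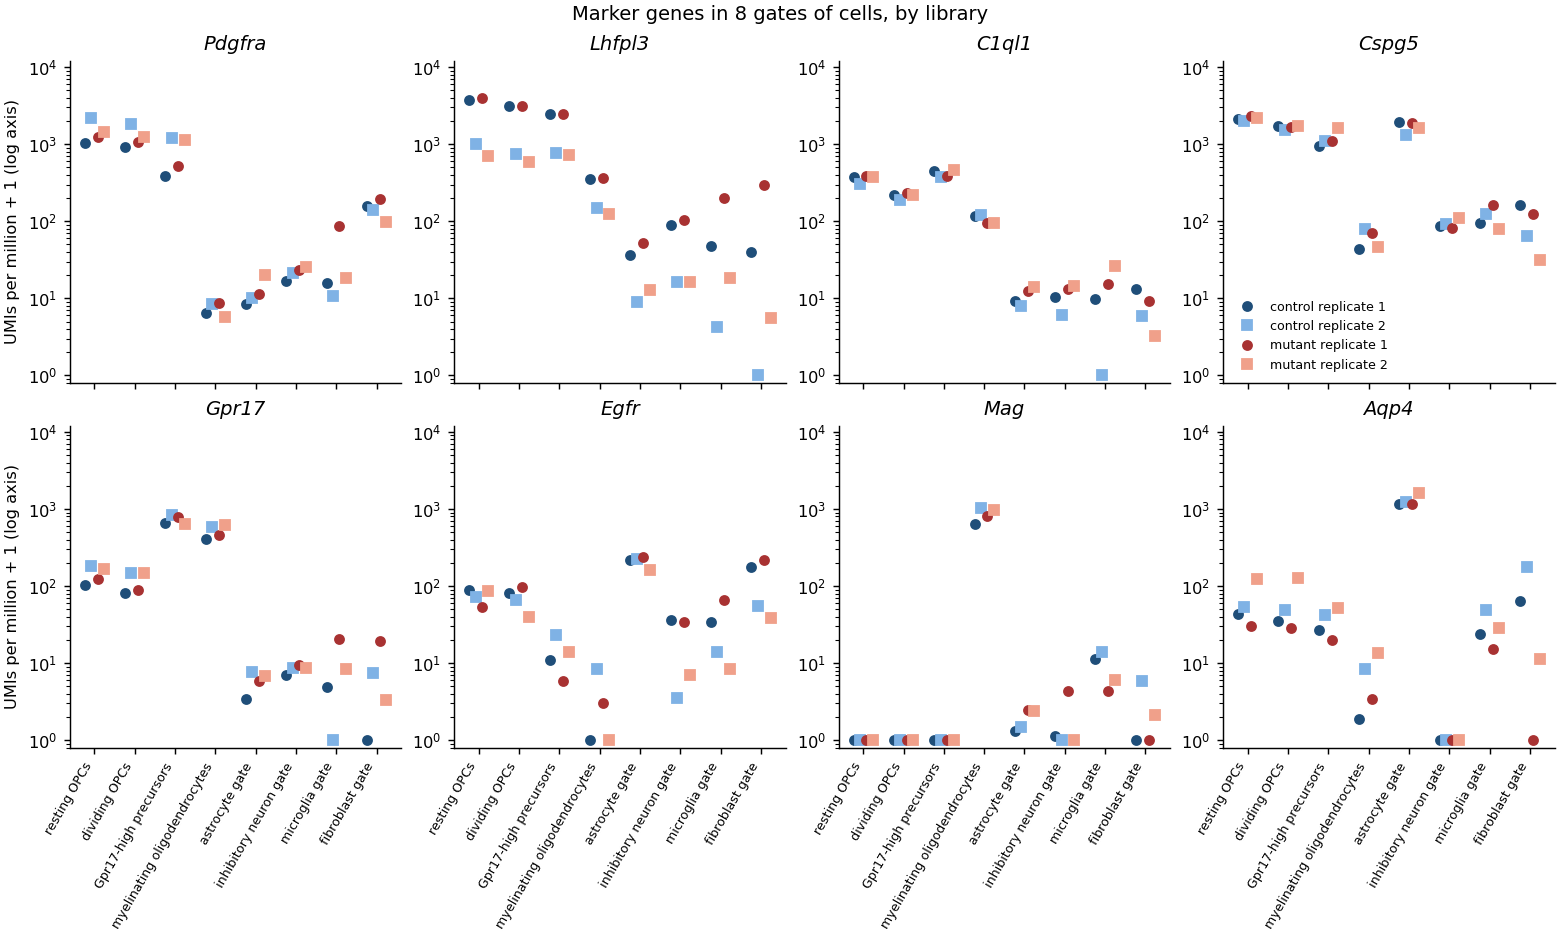
Levels of 8 marker genes as CPM + 1 on a log axis (vertical) in resting OPCs and 7 other gates of cells (horizontal), with a point for each library. *C1ql1* lies at 306 to 381 CPM in resting OPCs and at 6.98 to 12.9 CPM in the astrocyte gate, while *Cspg5* overlaps between dividing OPCs and the astrocyte gate.

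As a description without a test, since the same cells set the gate, the genes with the largest fold over all other cells were led by *Tmem255b* (55.2 against 4.76 CPM), the collagen gene *Col19a1* (120 against 10.4 CPM) and *Rph3a*, which encodes a Rab effector of vesicle release (63.2 against 5.68 CPM). The 25 leading genes also held *Lhfpl3*, *Pdgfra*, *C1ql1*, the kainate receptor auxiliary subunit gene *Neto1*, the nicotinic receptor subunit gene *Chrna4*, the adhesion genes *Cntn1*, *Cntn4* and *Pcdh15*, and *Matn4*, which encodes a matrix protein. Dividing OPCs and precursors with at least 5 *Gpr17* UMIs also held *Tmem255b* (35.1 and 38.6 CPM) and *Col19a1* (78.2 and 57.3 CPM). *C1ql1* was at 409 CPM in those precursors against 371 CPM in resting OPCs. The folds over all other cells thus do not single out resting cells within the lineage. *Mag*, *Mobp* and *Mog* were 0 by the rule, and *Opalin*, a myelin gene outside the rule, was also 0 in all 1560 cells. *Lhx2*, a transcription factor gene of the developing forebrain, was at 56.4 and 41.1 CPM in controls and 52.4 and 57.8 CPM in mutants. *Hoxa5* and *Hoxc8*, which mark hindbrain and spinal cord, were at 0 in every library.

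The edges of the gate were soft for *Pdgfra*. Exactly 3 UMIs put 112 cells just inside and exactly 2 left 114 just outside. Cells with 3 *Pdgfra* UMIs held 2209 CPM of *Lhfpl3* and 90.9 CPM of the astrocyte water channel gene *Aqp4*, and those with 2 held 1793 and 330 CPM. At 4 *Gpr17* UMIs there were 109 cells inside and at 5 there were 59 outside. A single UMI of *Mki67* or *Top2a* excluded 238 cells.

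Markers of other cell types were also detected. Summed astrocyte markers were at 996 and 1078 CPM in controls and 776 and 1310 CPM in mutants, led by the glutamate transporter gene *Slc1a3* (522, 539, 406 and 565 CPM). Choroid and ependymal markers reached 1646 CPM in control replicate 1 but 46.6, 23.9 and 49.2 CPM in control replicate 2 and mutant replicates 1 and 2, because 1 cell held 6962 of the 6977 UMIs of *Ttr*, the transthyretin gene of the choroid plexus. Blood markers reached 3070 CPM in control replicate 2 and 3.34 to 23.9 CPM in the other libraries. Cells with at least 10 UMIs of microglial, endothelial, mural, choroid or blood markers numbered 3, 1, 5 and 3 in control replicates 1 and 2 and mutant replicates 1 and 2, and those with at least 1 such UMI 122, 108, 182 and 123. Doublets were not called by a doublet caller, and 22 resting OPCs also met the astrocyte gate, 16 the inhibitory neuron gate and 2 the microglia gate.

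The resting OPCs were also described by their low *Gpr17* counts. With 0 *Gpr17* UMIs there were 607 cells, with 1 or 2 there were 694 and with 3 or 4 there were 259, with median depths of 8115, 8614 and 9991 UMIs. *Egfr*, the epidermal growth factor receptor gene of early progenitors, stood at 136, 39.0 and 16.2 CPM along this order. The fall from 0 to 1 or 2 UMIs occurred in every library, from 161 to 37.3 and from 175 to 28.7 CPM in control replicates 1 and 2 and from 91.7 to 42.6 and from 165 to 40.1 CPM in mutant replicates 1 and 2. With 3 or 4 UMIs *Egfr* was at 12.7 and 39.5 CPM in controls and 7.58 and 24.3 CPM in mutants, so that control replicate 2 was higher there than with 1 or 2. *Egfr* was more frequent in cells gated as astrocytes. After thinning it was found in 31.9% and 32.0% of those in controls and 31.4% and 22.4% in mutants. The shares of resting OPCs were 8.15% and 8.97% in controls and 5.71% and 8.94% in mutants.

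Pooled over libraries, the cell cycle kinase gene *Cdk6* was at 139, 79.2 and 64.8 CPM along the same order, and it was lower at each step in all 4 libraries. The intermediate filament gene *Vim* was at 219, 176 and 138 CPM and the antiproliferative early-response gene *Btg2* at 123, 53.4 and 34.6 CPM. Their order did not hold in every library, since *Vim* was at 157, 73.5 and 85.9 CPM in mutant replicate 1 and at 286, 439 and 284 CPM in mutant replicate 2, and *Btg2* at 171, 83.3 and 99.6 CPM in mutant replicate 2. In the opposite direction, *Cspg4*, which encodes the NG2 proteoglycan of OPCs, was at 233, 323 and 375 CPM and *C1ql1* at 269, 411 and 475 CPM. Both were lowest at 0 *Gpr17* UMIs in all 4 libraries. From 1 or 2 to 3 or 4 UMIs, however, *Cspg4* went from 281 to 266 CPM in control replicate 1. Over that step *C1ql1* went from 357 to 331 CPM in control replicate 2. *Bcas1*, an early oligodendrocyte gene, was at 222, 226 and 224 CPM, but the summed early differentiation list was at 1667, 1919 and 2025 CPM and was lowest at 0 *Gpr17* UMIs in all 4 libraries. Within it *Itpr2*, a calcium release channel gene, was at 225, 281 and 350 CPM and *Fyn* at 409, 457 and 482 CPM. In control replicate 2 *Fyn* went from 438 CPM with 1 or 2 UMIs to 388 CPM with 3 or 4. These levels pool cells of a stratum and were not tested, and the strata differ in depth, since a shallow cell is less likely to show a *Gpr17* UMI. Summed stress-response genes moved with the strata, at 1301, 944 and 787 CPM, and their part in the pattern was not tested. The inhibitory neuron gene *Dlx1* was at 20.7, 5.80 and 3.68 CPM and was lower at 1 or 2 than at 0 *Gpr17* UMIs in all 4 libraries. *Dlx2* was at 16.3, 8.53 and 5.16 CPM, but over that step it went from 8.29 to 10.2 CPM in mutant replicate 1 and from 1.17 to 5.27 CPM in mutant replicate 2. Summed astrocyte markers were at 1003, 935 and 944 CPM, with no common order over the libraries (1081, 793 and 1266 CPM in control replicate 1 but 1321, 1453 and 958 CPM in mutant replicate 2). The part of such cells in the pattern was not tested.

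**Figure D2:**
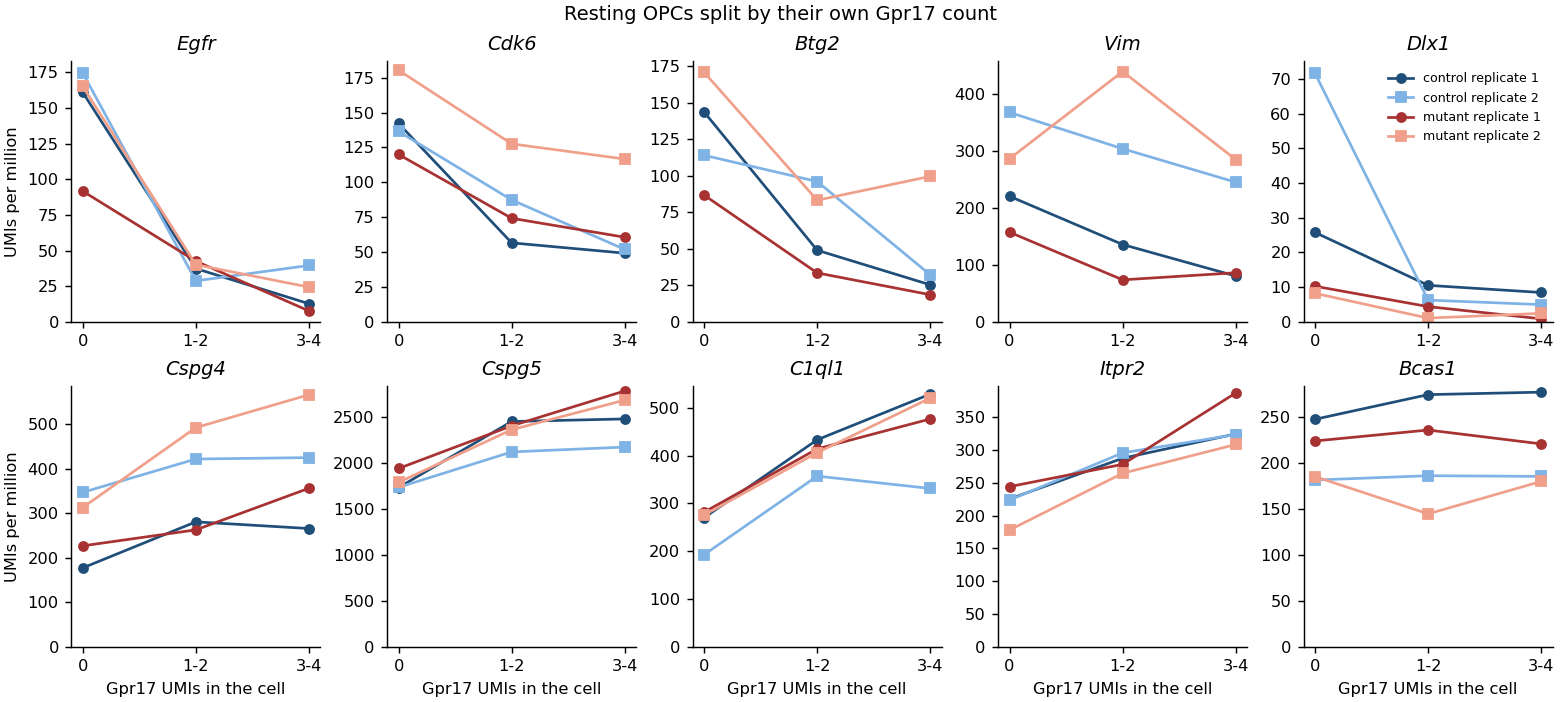
Levels of 10 genes in CPM (vertical axes) in resting OPCs with 0, 1 or 2, and 3 or 4 *Gpr17* UMIs (horizontal axes), with a line for each library. *Egfr* is highest in cells without *Gpr17* in all 4 libraries, and *C1ql1* and *Cspg4* are lowest there in all 4.

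Resting OPCs were next compared with 672 dividing OPCs, which met the same rule but held at least 2 UMIs of *Mki67* or *Top2a*. Of the genes tested, 10 of 11 identity genes and 12 of 18 proteoglycan and matrix genes were higher in resting cells, and all 24 S phase and all 20 G2 and M phase genes were lower. Without the library block, 1 identity gene (*C1ql1*) and 0 proteoglycan and matrix genes were higher. The dividing cells were deeper, with medians of 16146 and 11228 UMIs in control replicates 1 and 2 and 14663 and 10580 in mutant replicates 1 and 2. Counts were summed per library, library was a block, the genes of the gates were left out, and the test was edgeR's quasi-likelihood test with Benjamini-Hochberg adjustment at 0.05. Of 11662 genes tested, 1856 were higher in resting OPCs (15.9%) and 2116 lower (18.1%). The gates were set on the same cells, so the test shows whether a difference exceeded its spread over the 4 libraries and not that it is independent of the gate.

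Of 11 identity genes tested, 10 were higher in resting OPCs and 0 lower, with a median log2 difference of 0.33 against 0.03 over all genes. *C1ql1* was at 215 and 191 CPM in dividing cells of control replicates 1 and 2 and at 234 and 220 CPM in those of mutant replicates 1 and 2, each below the 306 to 381 CPM of resting cells, a log2 difference of 0.69 ± 0.06 (SE, n = 4 libraries, adjusted p = 1.3e-09). *Cspg5* was higher by 0.33 ± 0.04 on the log2 scale (adjusted p = 3.9e-06). *Ptprz1*, a receptor phosphatase of the proteoglycan family, was at 3796, 4722, 3990 and 3654 CPM in resting cells and at 3162, 3802, 3210 and 2956 CPM in dividing cells of the same libraries. Within each library the resting cells were the higher, although the range of *Ptprz1* in the 2 states overlapped between libraries.

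Among proteoglycan and matrix genes, 12 of 18 were higher and 0 lower, with a median of 0.28. For ion channels and transmitter receptors the counts were 19 higher and 4 lower of 41 (median 0.24). *Gria2*, which encodes the AMPA receptor subunit that limits calcium entry, was at 803, 1388, 961 and 1512 CPM in resting cells against 669, 1015, 727 and 1151 CPM in dividing cells, a log2 difference of 0.33 ± 0.05 (adjusted p = 9.8e-06). Of 20 growth factor signalling genes 8 were higher and 0 lower, with the neuregulin receptor gene *Erbb4* at 0.38 ± 0.05 (adjusted p = 3.6e-06).

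Notch pathway genes were mixed, with 6 of 20 higher and 1 lower (median 0.15). The ligand genes *Dll3* and *Dll1* rose and the receptor gene *Notch1* fell. *Dll3*, an atypical Notch ligand gene, was at 130 and 108 CPM in controls and 113 and 174 CPM in mutants in resting cells, against 67.2, 42.6, 72.8 and 77.2 CPM in dividing cells, without overlap (0.89 ± 0.09, adjusted p = 6.8e-08). *Dll1* rose by 0.67 ± 0.11 on the log2 scale (adjusted p = 3.9e-05), and *Notch1* fell by 0.21 (SE 0.06, adjusted p = 0.013, and 0.057 without scaling between libraries).

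Of 30 lineage transcription factors 8 were higher and 6 lower, against 15.9% and 18.1% over all genes, so that the lower count was near the background. Without the library block 0 were higher and 1 lower (*Sox11*). *Sox11*, a gene of immature progenitors, fell by 0.77 (SE 0.06, adjusted p = 1.4e-09), from 441, 423, 431 and 695 CPM in dividing cells to 269, 316, 250 and 376 CPM in resting cells. *Sox2*, which maintains progenitors, fell by 0.37 (SE 0.06, adjusted p = 2.8e-05). Of 10 regional genes 6 were lower in resting cells and 0 higher. Without the library block 2 were lower (*Dlx2* and *Pax6*). *Dlx2*, a transcription factor gene of ventral forebrain progenitors and inhibitory neurons, was at 15.4 and 15.1 CPM in controls and 8.68 and 4.07 CPM in mutants, against 49.98, 29.5, 48.6 and 29.3 CPM in dividing cells, and fell by 1.98 (SE 0.18, adjusted p = 1.0e-08). These transcripts sat in few cells: for *Dlx1*, 62 of 77 UMIs in dividing OPCs of control replicate 1 lay in cells that also held *Gad1* or *Gad2*, genes of inhibitory neurons. The part of such cells in the regional difference was not tested.

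The cell cycle lists describe what the gates separate. All 24 S phase genes and all 20 G2 and M phase genes were lower in resting cells, with medians of -2.20 and -5.65. Of 21 G1 regulators 15 were lower and 1 higher. Without the library block 23 S phase genes, 20 G2 and M phase genes and 7 G1 regulators were lower. *Hmmr*, a spindle gene, was at 0.904 to 1.21 CPM in resting cells and at 114 to 217 CPM in dividing cells. The other lower genes named by size (*Depdc1a*, *Kif11*, *Aurkb*, *Cenpe*, *Esco2*, *Cenpf*, *Sgo1*, *Pimreg*, *Cdca8*, *Nusap1* and *Ska1*) all act in chromosome cohesion, the spindle or cytokinesis or are typical of cycling cells. *Ccnd2*, a D-type cyclin gene, fell by 0.72 (SE 0.08, adjusted p = 2.8e-07). Its relative *Ccnd1* was at 432, 442, 425 and 439 CPM in resting cells and 373, 436, 400 and 470 CPM in dividing cells, a difference of 0.01 ± 0.06 (adjusted p = 0.94). *Cdkn1b*, whose product p27 restrains cyclin-dependent kinases, fell by 0.38 (SE 0.07, adjusted p = 2.2e-04).

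Among the higher genes named by size, *Rph3a* was at 66.7, 47.2, 65.1 and 63.3 CPM against 25.9, 30.1, 25.9 and 18.5 CPM in dividing cells, without overlap (1.23 ± 0.12, adjusted p = 4.8e-08). *Chgb*, which encodes a granin of secretory granules, was at 58.1, 96.8, 61.1 and 68.7 CPM against 27.2, 37.3, 23.9 and 35.5 CPM (1.14 ± 0.10, adjusted p = 8.2e-09). Others were *6330403K07Rik*, *Draxin*, *Unc13c*, *Miat*, *Cacna1e*, *Hist3h2a*, *Tcp11l2* and *Gpr158*, with log2 differences of 0.91 to 1.04. The rule also named *Hbb-bs*, a haemoglobin gene whose excess came from the 1 cell with blood markers in control replicate 2 (adjusted p = 0.23 without such cells).

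Of 17 early differentiation genes 7 were higher and 1 lower (median 0.12), and 0 were higher without the library block. *Bcas1* was at 263, 185, 229 and 167 CPM against 188, 134, 167 and 99.8 CPM (0.46 ± 0.06, adjusted p = 4.7e-06). Of 11 myelin genes 6 were higher and 2 lower. Chromatin regulators were 4 higher and 9 lower of 27, but 5 and 5 without scaling between libraries and 0 and 2 without the library block. *Ezh2*, the methyltransferase of Polycomb repression, fell by 1.24 (SE 0.06, adjusted p = 4.7e-13), and *Chd8* was at 62.02, 105, 73.5 and 116 CPM in resting cells against 62.5, 111, 74.7 and 110 CPM in dividing cells (-0.06 ± 0.07, adjusted p = 0.56). Wnt genes were 1 higher and 3 lower of 24, and cholesterol and fatty acid genes 3 and 2 of 24. Astrocyte markers were 1 and 1 of 8, neuron markers 1 and 2 of 7, and stress genes 4 and 0 of 9. Of all genes tested, 15.9% were higher and 18.1% lower. The Wnt, cholesterol and fatty acid, and astrocyte counts lay below these shares in both directions.

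The split of calls depended on the method. It was 2425 higher and 1788 lower without scaling between libraries and 670 and 1244 with DESeq2. The upward list calls and part of the downward ones rested on comparing the states within a library. Without the library block 69 genes were higher and 688 lower. Of the upward calls, 1 identity gene and 0 proteoglycan or channel genes then passed the threshold.

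**Figure D3:**
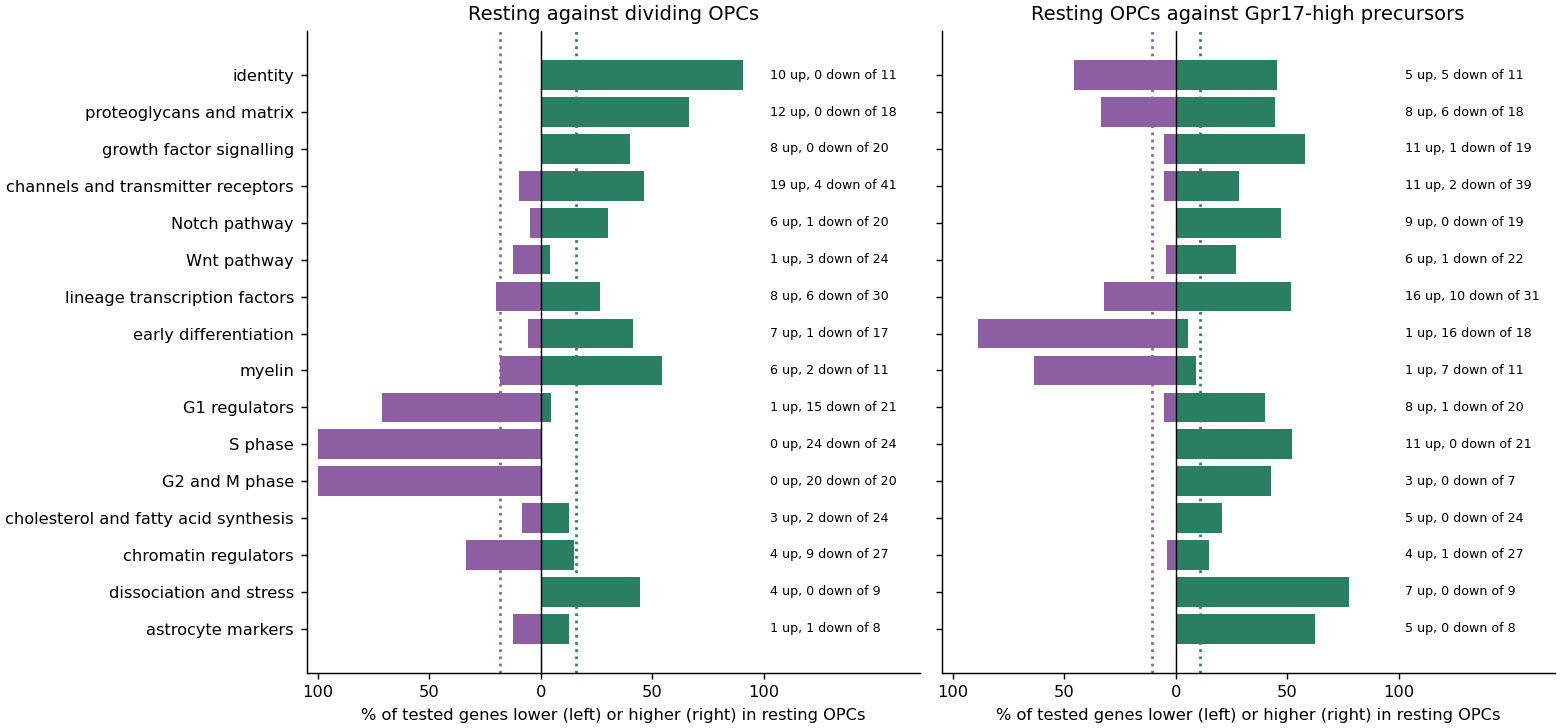
Percent of the tested genes of each list that were higher (right, green) or lower (left, purple) in resting OPCs than in dividing OPCs and than in Gpr17-high precursors, with dotted lines at the percent over all genes tested. Identity genes are higher against dividing OPCs (10 of 11), and early differentiation genes are lower against Gpr17-high precursors (16 of 18).

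The other neighbour was the 363 Gpr17-high precursors, with at least 5 *Gpr17* UMIs. These precursors did not all meet the *Pdgfra* minimum of the resting rule. Pooled over libraries, *Pdgfra* was at 663 CPM in them against 1317 CPM in resting OPCs. The groups thus differed in *Pdgfra* as well as *Gpr17*, and the part of the *Pdgfra* term in the differences below was not tested. Against Gpr17-high precursors, 16 of 18 early differentiation genes were lower in resting OPCs, and 9 of 19 Notch genes and 11 of 19 growth factor signalling genes were higher. Without the library block these counts were 8, 0 and 2. Their depth medians were 14210 and 12058 UMIs in control replicates 1 and 2 and 15285 and 11305 in mutant replicates 1 and 2. Of 11078 genes tested, 1214 were higher in resting OPCs (11.0%) and 1179 lower (10.6%), with the same test and block. Both counts were much lower after thinning or without either library of replicate 1, with values given in the last section.

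The early differentiation list describes in part what the gates separate, since they are split by *Gpr17*, a marker of the committed stage. Of 18 early differentiation genes, 16 were lower in resting OPCs and 1 higher (median -1.71, against 0.02 over all genes). *Enpp6*, a choline phosphodiesterase gene of newly formed oligodendrocytes, was at 0.466 and 0.605 CPM in controls and 1.34 and 1.36 CPM in mutants, against 213, 213, 289 and 146 CPM in Gpr17-high cells, and fell by 7.04 (SE 0.16, adjusted p = 6.1e-17). *Bcas1* was at 2015, 1190, 1994 and 887 CPM in Gpr17-high cells and was lower in resting cells by a log2 difference of -2.85 ± 0.09 (adjusted p = 1.5e-14). *Fyn*, a kinase gene of oligodendrocyte maturation, was at 452, 402, 474 and 380 CPM in resting cells and at 1797, 1046, 2214 and 986 CPM in Gpr17-high cells (-1.81 ± 0.11, adjusted p = 2.5e-10). In each of these genes the groups did not overlap.

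Myelin genes were 7 lower and 1 higher of 11 (median -1.17). *Mbp*, the myelin basic protein gene, was at 38.7, 35.1, 40.4 and 40.2 CPM in resting cells against 265, 225, 335 and 250 CPM, without overlap. It fell by 2.84 (SE 0.10, adjusted p = 4.4e-14), and *Myrf*, the transcription factor gene that starts myelin gene expression, by 2.79 (SE 0.19, adjusted p = 1.3e-09). The further lower genes named by size were *9530059O14Rik*, *Epcam*, the ligand gene *Bmp4*, *Epb41l2*, *Neu4*, *9630013A20Rik* and *Bcas1os2*, which lies opposite *Bcas1* and may not be separable from it.

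Lineage transcription factors moved in both directions, with 16 of 31 higher and 10 lower (median 0.48), and 0 and 3 without the library block. *Nfia*, which acts in the switch to gliogenesis, was higher by 0.53 ± 0.07 (adjusted p = 2.5e-05). On the other side were *Tcf7l2*, a Wnt effector gene of differentiating oligodendrocytes (-1.70 ± 0.09, adjusted p = 2.0e-11), *Zeb2* (-1.51 ± 0.12, adjusted p = 1.1e-08) and *Sox10*, which stays on through the lineage (-0.43 ± 0.07, adjusted p = 2.7e-04).

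Identity genes did not behave as a block, with 5 higher and 5 lower of 11 (median -0.05). Without the library block 0 were higher and 1 lower (*Neu4*). *Cspg5* was higher in resting cells by 0.85 ± 0.09 (adjusted p = 6.1e-07) and *Cspg4* by 0.59 ± 0.10 (adjusted p = 2.2e-04). *Tnr*, which encodes tenascin-R of the perineuronal matrix, was at 939, 477, 1092 and 334 CPM in resting cells against 2734, 1083, 3178 and 669 CPM, and fell by 1.38 (SE 0.08, adjusted p = 1.9e-10). *C1ql1* was slightly lower in resting cells (-0.24 ± 0.07, adjusted p = 0.028, and 0.064 without scaling between libraries). Among proteoglycan and matrix genes 8 of 18 were higher and 6 lower, and 0 and 2 without the library block.

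Notch genes were 9 higher and 0 lower of 19 (median 0.59). *Hes5*, a Notch target gene, was at 180, 145, 157 and 193 CPM in resting cells against 65.6, 118, 78.0 and 118 CPM, without overlap (0.87 ± 0.13, adjusted p = 3.8e-05), and the ligand gene *Dll1* was higher by 1.14 ± 0.17 (adjusted p = 4.8e-05). Growth factor genes were 11 higher and 1 lower of 19 (median 0.50). *Egfr* had the largest rise among the genes named by size, at 87.0 and 70.8 CPM in controls and 52.4 and 85.4 CPM in mutants against 9.96, 22.0, 4.88 and 12.9 CPM (2.71 ± 0.19, adjusted p = 4.3e-09). Larger differences were called for *Ttr* (5.01) and *Rgs5* (2.78), which were not of 1 direction in all 4 libraries. Against dividing OPCs *Egfr* differed by -0.10 ± 0.17 (adjusted p = 0.69). Channels and receptors were 11 higher and 2 lower of 39, and Wnt genes 6 and 1 of 22. Without the library block both lists had 0 higher and 0 lower.

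Resting OPCs and Gpr17-high precursors were both gated for the absence of *Mki67* and *Top2a*, in raw counts. Resting OPCs nevertheless held more of the S phase genes. They were also shallower, and a shallow cell is less likely to show a UMI of either gene. Of 21 S phase genes 11 were higher and 0 lower (median 0.75), and G1 regulators were 8 and 1 of 20. DESeq2 called 6 of 24 S phase genes higher and 0 lower. *Cdk6* was at 92.6, 92.0, 87.2 and 146 CPM against 36.5, 23.7, 22.5 and 46.3 CPM (1.66 ± 0.12, adjusted p = 8.4e-09), and *Ccnd1* was higher by 0.77 ± 0.12 (adjusted p = 6.7e-05). *Cdkn1c*, whose product p57 stops the cycle as oligodendrocytes form, was at 28.0, 33.9, 24.7 and 28.9 CPM against 192, 159, 109 and 170 CPM (-2.43 ± 0.11, adjusted p = 7.1e-12). These groups did not overlap for *Cdk6* or *Cdkn1c*.

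The remaining upward genes named by size were *Draxin*, *Sncaip*, *Vim*, *Arap2*, *Ier2*, *Btg2*, *Creb5*, *Rasl11a*, *Nkain3* and *Nes*. *Vim*, an intermediate filament gene of radial glia, was at 163, 306, 105 and 351 CPM in resting cells against 14.1, 125, 21.8 and 143 CPM (1.82 ± 0.19, adjusted p = 7.9e-07). *Btg2* and *Nes* lost their calls when every cell was thinned to 2000 UMIs (adjusted p = 0.088 and 0.055). Stress genes were 7 higher and 0 lower of 9 (median 1.23), with *Egr1* higher by 1.23 ± 0.17 (adjusted p = 3.0e-05), and astrocyte markers 5 and 0 of 8 (median 0.66), with *Slc1a3* higher by 0.98 ± 0.12 (adjusted p = 5.0e-06). Their part in the other differences was not tested.

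Regional genes were 4 and 0 of 10, cholesterol and fatty acid genes 5 and 0 of 24, chromatin regulators 4 and 1 of 27, and neuron markers 2 and 0 of 7. Of all genes tested, 11.0% were higher and 10.6% lower, so the higher count of chromatin regulators was near the background. *Chd8* differed by -0.09 ± 0.09 (adjusted p = 0.56). The split of calls was 1448 higher and 1002 lower without scaling, 455 and 639 with DESeq2, and 19 and 98 without the library block.

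The share of resting OPCs among filtered cells was compared between genotypes. It was 7.09% (exact Clopper-Pearson 95% interval 6.44 to 7.79) and 7.50% (6.58 to 8.51) in control replicates 1 and 2 and 11.1% (10.3 to 11.98) and 9.21% (8.24 to 10.3) in mutant replicates 1 and 2. Both mutant libraries lay above both controls, at 10.2% ± 1.36 against 7.30% ± 0.289 (SD, n = 2 libraries each), a difference of 2.87 percentage points (exact two-sided permutation p = 0.333, the smallest that 2 against 2 libraries can give). The intervals cover counting error only. The excess was 4.04 points within replicate 1 and 1.70 within replicate 2. It was not particular to resting OPCs, as the mutant share was higher within each replicate in the rest of the lineage. Dividing OPCs made up 2.3% and 4.4% of cells in controls and 4.5% and 4.7% in mutants. Gpr17-high precursors made up 1.4% and 1.6% against 3.0% and 1.9%, and myelinating oligodendrocytes 0.96% and 0.64% against 2.0% and 0.88%.

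The excess of resting OPCs was not stable against the mitochondrial limit. At a limit of 5%, it was 4.26 points within replicate 1 and -1.0 within replicate 2 (exact permutation p = 0.667). With 0 *Gpr17* UMIs required, the shares were 3.90% ± 0.477 in mutants and 2.73% ± 0.673 in controls, so the 1.17 points of excess stood on a smaller base. The denominator also varied, since the inhibitory neuron gate held 16.3% and 15.0% of the cells in control and mutant replicate 1 but 4.37% and 3.05% in control and mutant replicate 2. Without cells of at least 2 summed UMIs of *Aqp4* and *Aldh1l1*, of *Gad1* and *Gad2* or of *C1qa*, *C1qb* and *C1qc*, a removal of possible doublets that also takes such cells out of the denominator, the shares were 20.4% ± 3.94 in mutants and 16.6% ± 0.591 in controls. The excess was then 6.15 points within replicate 1 and 1.42 within replicate 2. Among cells with an *Olig1* or *Olig2* UMI the shares were 15.9% ± 4.71 in mutants and 13.1% ± 1.85 in controls (exact permutation p = 0.667), an excess of 4.80 points within replicate 1 and 0.758 within replicate 2.

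**Figure D4:**
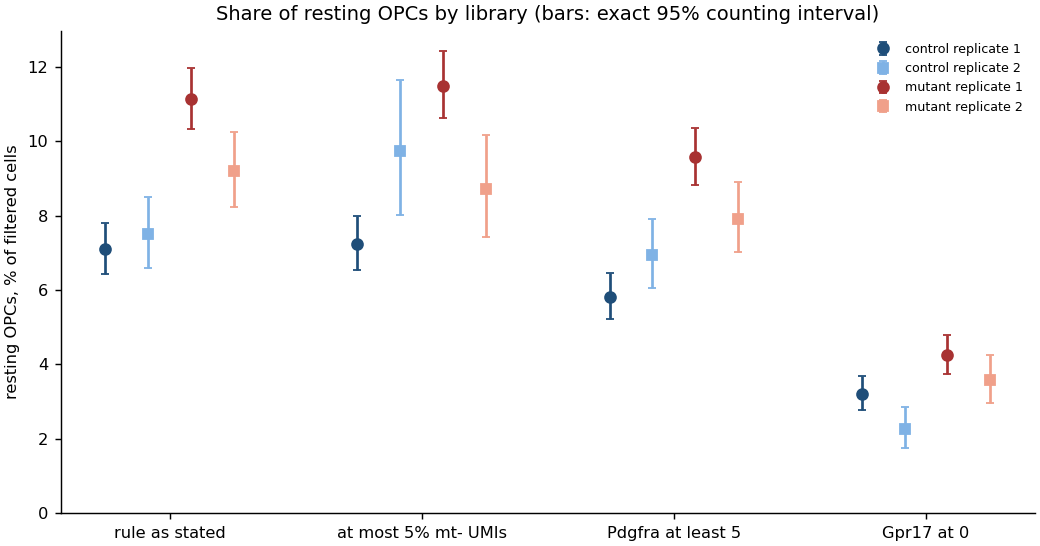
Resting OPCs as a percent of filtered cells (vertical axis) in each library, with exact 95% counting intervals, under the rule as stated, a mitochondrial limit of 5%, at least 5 *Pdgfra* UMIs and 0 *Gpr17* UMIs. The mutants lie above the controls of the same replicate except in replicate 2 at the mitochondrial limit of 5%, where the difference was -1.0 point.

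The share of resting cells with a detected transcript was also followed for *Gpr17*, as a description, because the rule limits its UMIs. After thinning, a *Gpr17* UMI was found in 21.0% and 30.9% of resting OPCs of control replicates 1 and 2 and in 24.8% and 34.8% of those of mutant replicates 1 and 2. Unthinned, the shares were 54.8%, 70.0%, 61.9% and 61.3%, and cells gated as inhibitory neurons gave 0.429% to 1.06% after thinning. Within each replicate the thinned share was higher in the mutant, while over the 4 libraries the genotypes overlapped, since both libraries of replicate 2 had the higher shares. The unthinned share was lower in the mutant within replicate 2.

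Gene expression was then compared between mutant and control resting OPCs. *Chd8* itself (chromosome 14, 52198151 to 52257780 on the minus strand in the mm10 build) was at 62.02 and 105 CPM in control replicates 1 and 2 and at 73.5 and 116 CPM in mutant replicates 1 and 2. The groups overlapped, with a log2 difference of 0.17 ± 0.37 (SE, n = 2 libraries each, adjusted p = 1). Within replicates 1 and 2 the mutant was higher by 0.24 and 0.13. With the replicate number as a block the difference was 0.19 ± 0.19 (SE) and was not called. Reads of this chemistry come from the 3′ end of transcripts, so the count does not check whether the loxP-flanked part had been removed. Of 12466 genes tested with edgeR's quasi-likelihood test, 0 passed an adjusted p of 0.05 (0%), while 13 had an unadjusted p under 0.05. DESeq2 also called 0, with 27 genes at an unadjusted p under 0.05.

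The genes chosen for the OPC comparison overlapped between genotypes or differed within their error. *Olig1* and *Pdgfra* belong to the rule that chose the cells, so their values are given without a test. *Olig1* was at 1392 and 1224 CPM in controls and 1286 and 2045 CPM in mutants, a log2 difference of -0.11 within replicate 1 and 0.74 within replicate 2. *Pdgfra* was at 1027 and 2159 CPM in controls and 1239 and 1461 CPM in mutants, with differences of 0.27 and -0.56. *Tcf4*, a partner of the Olig factors, was at 1614 and 1150 CPM in controls and 1669 and 1402 CPM in mutants (0.15 ± 0.35), and *Nfia* at 705 and 339 CPM against 705 and 503 CPM (0.20 ± 0.49). *Cspg5* differed by 0.11 ± 0.28, with both mutant libraries (2320 and 2200 CPM) above both controls (2143 and 2028 CPM). *C1ql1* differed by 0.14 ± 0.28 and *Lhfpl3* by -0.00 ± 1.07. The adjusted p of each of these 5 genes was 1. These errors come from the fit without the replicate block, so they include the difference between replicate numbers. With the block, *Lhfpl3* differed by -0.21 ± 0.25, *Nfia* by 0.27 ± 0.20 and *Tcf4* by 0.16 ± 0.23. *C1ql1* then differed by 0.15 ± 0.19 and *Cspg5* by 0.11 ± 0.24, and none of them was called.

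The rule for named genes then took those with the smallest unadjusted p among those of 1 direction in both replicates, given here as values without a call. *Vegfa*, the vascular growth factor gene, was at 26.4 and 16.9 CPM in controls and 32.2 and 51.5 CPM in mutants (0.89 ± 0.38), and *Arap2*, which encodes a regulator of small GTPases, at 59.2 and 64.1 CPM against 37.7 and 46.1 CPM (-0.56 ± 0.23). *Gm44257*, *Cdipt* and *Washc5* had log2 differences of 0.76, 0.57 and -0.58. The groups did not overlap in these genes, as their selection favours.

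In a further 4, single barcodes that also met the rule held most UMIs of a library. *Ttr* was at 1627 and 34.5 CPM in controls and 3.34 and 8.58 CPM in mutants, with 6962 of 6977 UMIs of control replicate 1 in 1 cell. In control replicate 2, by contrast, its 57 UMIs lay in 51 cells (22.9%), against 18 cells (5.96%) in mutant replicate 2. *Hba-a1* and *Hbb-bs*, haemoglobin genes with near-identical copies among which reads may be split, were high only in control replicate 2, where 1 cell held 5057 of 5074 globin UMIs. *Rgs5*, a pericyte gene, was at 0 and 7.26 CPM in controls and 22.4 and 56.5 CPM in mutants, with 130 of 134 UMIs in 1 cell of mutant replicate 1 and 102 of 125 in 1 cell of mutant replicate 2.

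With the replicate number as a block, 18 of the 12466 genes were called (0.144%), 7 higher and 11 lower in mutants. Only 4 libraries enter this fit, so its p-values lean on a spread estimated across genes. The higher genes were *Rgs5*, *Higd1b*, *Cldn5*, *Igfbp7*, *Rbpms*, *Tm4sf1* and *Mgp*, which are typical of vessels. The lower genes included *Ttr*, *Hba-a1*, *Hba-a2* and *Hbb-bs*, beside *Olfr1369-ps1*, *Dlx1*, *Gm29260*, *Hist1h1e*, *Stmn2* and *Lars2*. Without the 12 cells of at least 10 UMIs of microglial, endothelial, mural, choroid or blood markers, the blocked fit called 5 genes, all lower in mutants, of which *Dlx1*, *Hist1h1e*, *Olfr1369-ps1* and *Stmn2* were among the 18 and *Prex2* was not. Neuron markers did not count towards that removal, and *Dlx1* and *Stmn2* are both on the neuron marker list. The unblocked fit without those cells called 0 of 12335 genes, with 8 at an unadjusted p under 0.05, and DESeq2 with the replicate block called 0.

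**Figure D5:**
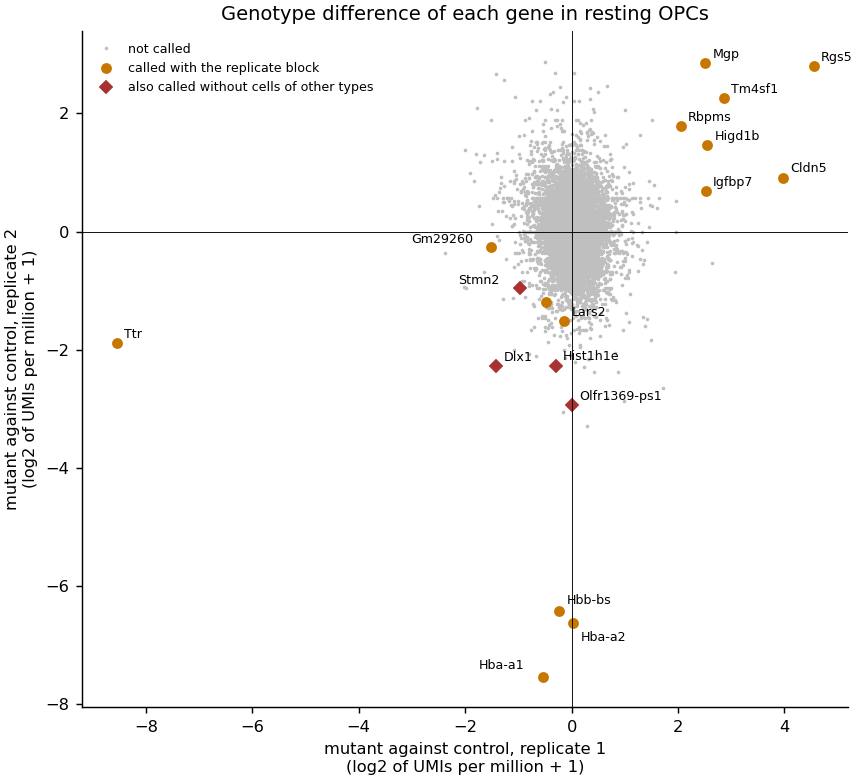
Log2 difference of CPM + 1, mutant over control, of each tested gene in resting OPCs within replicate 1 (horizontal axis) and within replicate 2 (vertical axis). Labels are given for called genes that the text names. Grey points are genes not called, orange circles the genes called with the replicate block, and red diamonds those of them still called without cells of at least 10 UMIs of microglial, endothelial, mural, choroid or blood markers. The globin genes are low only in replicate 2, where *Hba-a1* lies at -7.54, and *Ttr* lies at -8.55 in replicate 1.

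*Hist1h1e*, a linker histone gene, was at 218 and 264 CPM in control replicates 1 and 2 and at 178 and 53.8 CPM in mutant replicates 1 and 2 (-1.19 with the replicate block, adjusted p = 2.2e-06). It differed by -0.29 within replicate 1 and by -2.28 within replicate 2 on the log2 scale. Its share of cells with a UMI was 71.6% and 74.0% in controls and 62.2% and 26.5% in mutants, so the low value lay across the cells of mutant replicate 2. The same library was low in dividing OPCs, at 169 CPM against 461, 965 and 531 CPM in control replicates 1 and 2 and mutant replicate 1. *Dlx1* was at 16.8 and 23.6 CPM in controls and 5.68 and 4.07 CPM in mutants (-1.81 with the replicate block, adjusted p = 4.1e-04). It rested on 72, 39, 34 and 9 UMIs, of which 57, 19, 27 and 1 lay in cells that also held *Gad1* or *Gad2*. Such cells made up 104 of 405, 22 of 223, 162 of 630 and 37 of 302 resting OPCs in the same order. For *Stmn2*, a gene of growing neurons, 160 of 245 and 14 of 29 UMIs lay in such cells in controls and 90 of 171 and 7 of 19 in mutants. *Olfr1369-ps1* had 57 UMIs in 2 cells of control replicate 2, 41 of them in 1 cell, 8 in 2 cells of mutant replicate 2 and 0 in both libraries of replicate 1.

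By list, 0 genes of any list were called between genotypes without the block. Median log2 differences, against 0.01 over all genes, were 0.11 for the 11 identity genes and 0.09 for the 31 lineage transcription factors that the rule did not use, 0.08 for 20 Notch genes and 0.07 for 42 channels and receptors. They were 0.05 for 27 chromatin regulators, 0.03 for 20 proteoglycan and matrix genes and 0.00 for 17 early differentiation genes. They were 0.03 for 25 Wnt genes, 0.03 for 11 myelin genes and 0.01 for 21 growth factor genes without *Pdgfra*. The cell cycle lists gave 0.14 for 12 G2 and M phase genes, 0.02 for 23 S phase genes and -0.08 for 20 G1 regulators. The 24 cholesterol and fatty acid genes had a median of -0.03, the 12 regional genes -0.13 and the 10 stress genes -0.19. Markers of other cell types had medians farther from 0 than the identity genes, at -0.49 for 7 neuron, -0.45 for 5 microglia and 0.20 for 8 astrocyte markers. Fewer markers were tested of ependymal and choroid cells (0.62 over 4), blood (-6.66 over 3), endothelium (1.75 over 2) and mural cells (3.49 for 1). Their part in the other medians was not tested.

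The replicate numbers differed far more. In the same cells, 1417 genes were higher in replicate 2 (11.4%) and 2533 lower (20.3%), in a fit with genotype and replicate. The lower genes were long: their median span in the annotation was 112 kb, against 13.8 kb for the higher genes and 26.6 kb over all genes tested. *Fgf14*, a sodium channel partner gene, was at 966 and 1091 CPM in control and mutant replicate 1 and at 15.7 and 7.23 CPM in control and mutant replicate 2. *Nrg3*, a neuregulin gene, was at 664 and 748 CPM against 15.1 and 9.49 CPM. Channels and transmitter receptors were 25 lower and 3 higher of 42 in replicate 2, whereas cholesterol and fatty acid genes were 13 higher and 2 lower of 24. Software version, sex-linked expression and quality move with this contrast and cannot be told apart in it.

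The genotype difference was compared between resting OPCs and their neighbours with an interaction term. Against dividing OPCs, 6 of 12474 genes had a genotype effect that differed (0.0481%), and against Gpr17-high precursors 2 of 11922 (0.0168%). Of these, *Sox1ot*, a noncoding RNA gene annotated across *Sox1* on the same strand, so that reads may be shared, was at 14.0 and 7.87 CPM in control resting OPCs and 2.67 and 3.61 CPM in mutant ones, against 15.9 and 9.82 CPM and 34.4 and 12.3 CPM in dividing OPCs. The mutants were lower than the controls in resting cells. In dividing cells the mutant was the higher within each replicate, while the genotypes overlapped between replicates. *Rtl4*, a retrotransposon-derived gene on the X chromosome, was at 67.8 and 2.42 CPM in control resting OPCs and 58.1 and 1.36 CPM in mutant ones, against 18.5 and 1.31 CPM in control and 48.9 and 0.515 CPM in mutant dividing OPCs. In replicate 1 the mutant was the lower in resting and the higher in dividing cells, while replicate 2 held only 1 to 4 of its UMIs per library and state.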

How the data were processed

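The authors aligned reads to mm10 with Cell Ranger and deposited raw UMI counts per gene and barcode for each library, without normalization. The study's methods name version 7.0.0, the headers 7.0.0 and 5.0.1, and the submitters' notes 3.0. Groups and replicate numbers came from the sample labels. Members and gene lists were chosen with earlier results of these data known. Cells were gated on raw counts, and counts were summed per gate and library. Sums entered edgeR 4.0.16 (R 4.3.3) after its filterByExpr filter and TMM scaling, and p-values of its quasi-likelihood test (prior count of 2) were adjusted by Benjamini-Hochberg over all genes tested. The fits were also run on simulated counts with known changes. Those counts held no difference between replicate numbers, so they do not show how the genotype fit performs on these libraries. Gene symbols came from the matrices, and spans from GENCODE vM21, which held 32158 of 32285 genes.

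Genotype was the only term between genotypes, and library was a block between gates. Named genes were the gene lists (most abundant called genes as examples) and, between gates, the 12 genes of each direction with the largest change at adjusted p under 0.05, 1 direction in all 4 libraries and at least 50 CPM in a gate. Between genotypes the rule took the study's OPC genes and 10 genes by smallest unadjusted p, at a mean of at least 20 CPM and with 1 direction in both replicates. Leading genes over other cells were those found in at least 25% of members at 50 CPM or more. Other examples, such as *Ccnd1*, *Cdkn1b*, *Dll1*, *Hist1h1e*, *Dlx1* and the genes of the *Gpr17* strata, were chosen after their values were seen. Some genes that these rules take are not reported here. Alternatives were DESeq2 1.42.0, no scaling, other count filters (none, or at least 10 counts in every library), the replicate block, no library block, thinning to 2000 UMIs, other gate limits, removal of possible doublets and each library left out. Removal of cells with at least 10 UMIs of other types (microglial, endothelial, mural, ependymal and choroid, and blood markers), and DESeq2 with the replicate block, were added after seeing the data. Same-numbered libraries shared deviations: across 12466 genes, replicate 2 minus replicate 1 correlated at r = 0.816 between genotypes, with only 2 pairs.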

Additional observations from a re-analysis of the deposited data

Results flagged for a closer look

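The genotype effect (log2, mutant over control) differed between resting OPCs and dividing OPCs in 6 genes, and between resting OPCs and Gpr17-high precursors in 2, by edgeR's interaction term. The difference against dividing OPCs was -8.08 for *Pf4*, a macrophage gene, -6.78 for *Hbb-bs* and -6.55 for *Hba-a2*. It was -2.68 for *Sox1ot*, -1.82 for *Gm29260* and -1.53 for *Rtl4*. Against Gpr17-high precursors it was -7.97 for *Pf4* and -6.95 for *Mrc1*, another macrophage gene. With the replicate block the *Pf4* call against dividing OPCs was lost (-5.47, adjusted p = 0.15). Of the *Pf4* UMIs of resting OPCs in control replicate 1, 125 of 130 lay in 1 cell, as did 83 of 84 of those of dividing OPCs in mutant replicate 2 and all 48 of Gpr17-high precursors in mutant replicate 1. All 83 *Mrc1* UMIs of resting OPCs in control replicate 1 lay in 1 cell, as did all 49 of Gpr17-high precursors in mutant replicate 1, and 1 cell of control replicate 2 held 5057 of 5074 globin UMIs. Without cells of at least 10 UMIs of microglial, endothelial, mural, choroid or blood markers, *Sox1ot*, *Gm29260* and *Rtl4* kept differences of -2.91, -1.83 and -1.59 (adjusted p = 0.0011, 0.0039 and 0.016). That removal did not use neuron markers. In resting OPCs of control replicate 1, the 104 of 405 cells with *Gad1* or *Gad2* held 29 of 60 *Sox1ot*, 71 of 149 *Gm29260* and 132 of 291 *Rtl4* UMIs, and in dividing OPCs of that library 41 of 133 such cells held 25 of 37, 81 of 112 and 15 of 43. In resting OPCs of mutant replicate 1, 162 of 630 such cells held 4 of 16, 12 of 69 and 107 of 348 UMIs of these genes. In dividing OPCs of mutant replicate 1, 80 of 254 such cells held 57 of 141, 85 of 256 and 97 of 200. The part of such cells in these differences was not tested. *Gm29260* was at 34.7 and 1.82 CPM in control resting OPCs and 11.5 and 1.36 CPM in mutant ones, against 48.3, 3.93, 62.5 and 4.63 CPM in dividing OPCs, so replicate 2 carried few of its counts.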

How the results depend on the processing

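Between genotypes, 1 gene passed with no filter on low counts (*Ttr*, adjusted p = 0.013), 18 with the replicate block and 5 with the replicate block and without cells of other types, against 0. Resting OPCs against dividing OPCs gave 670 higher and 1244 lower with DESeq2, 69 and 688 without the library block, and 556 and 850 after thinning to 2000 UMIs. Leaving out a library gave 1289 to 1502 higher and 1567 to 2065 lower. Against Gpr17-high precursors the counts were 455 and 639, 19 and 98, and 348 and 438 under the same alternatives, and 613 to 1346 higher and 645 to 1342 lower with a library left out (654 and 748 without control replicate 1, 613 and 645 without mutant replicate 1). Differences in genotype effect numbered 29 and 21 with the replicate block, against 6 and 2, and 10 and 0 without cells of other types. The share difference was 1.63 points at a mitochondrial limit of 5%, 1.17 with 0 *Gpr17* UMIs and 1.91 to 3.84 with a library left out. The replicate block left it at 2.87 points, as it must with 1 library of each genotype in each replicate. Of 367 values for 21 named genes between genotypes, 362 stayed on their side of the threshold and 5 newly passed. The latter were *Ttr* without the filter, and *Ttr*, *Hba-a1*, *Rgs5* and *Hbb-bs* with the replicate block. Because 0 genes passed in the main fit, staying on that side does not show stability. Of the 367 values, 34 changed sign without a call. The cause of these changes was not tested, except that DESeq2 and thinning tested other numbers of genes. Whether depth or the number of libraries limited the number of genotype calls was not tested.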
